A study of Mus musculus with 16 samples.

Results

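The genes described here are 42 genes of the DNA replication machinery, named one by one and arranged in 10 roles from origin recognition to chromatin assembly behind the fork. They were read as log2 array signals in hematopoietic stem and progenitor cells of the bone marrow. A probe set was taken only where the platform annotation gave it a single gene. This left 41 of the 42 members, among 30176 genes tested in all. The probe set of Orc5, a subunit of the origin recognition complex, also named another gene and was left out. The 16 arrays fell into 4 groups of 4: KSL KO, KSL WT, KL KO and KL WT. KSL cells are lineage-negative, c-Kit+ and Sca-1+ and hold the stem cells, whereas KL cells are lineage-negative, c-Kit+ and Sca-1- committed progenitors. KO stands for mice null for Camkk2, a calcium/calmodulin-dependent kinase kinase that acts upstream of AMPK, and WT for wild-type mice. The marrow of 16 mice of each genotype gave 4 biological replicates, and the sources used here state no treatment or age for these mice and do not say how mice were pooled. The study used these arrays to ask which genes depend on Camkk2 in these cells.

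Before S phase, the origin recognition complex (ORC) marks origins and, with Cdc6 and Cdt1, loads the MCM helicase onto DNA, a step called licensing. In S phase, Cdc45 and GINS join MCM with the help of Mcm10, primase and the polymerases copy DNA behind a sliding clamp, Pcna, and the lagging strand is joined by Fen1 and Lig1. Transcription of many of these genes is driven by E2F factors as cells enter the cycle, and most adult stem cells of the marrow are quiescent.

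The genotype labels were checked first. On the KO-labelled KSL arrays, Camkk2 had log2 signals of 7.82, 7.93, 7.14 and 7.14 (replicates 1 to 4), against 7.98, 8.02, 7.11 and 7.45 on the WT-labelled KSL arrays. On the KL arrays, Camkk2 had 7.83, 7.82, 7.08 and 7.12 under the KO label, against 7.86, 7.81, 6.89 and 7.48 under the WT label. The labelled groups overlapped in both cell types, and in all 4 groups replicates 1 and 2 were above replicates 3 and 4. The log2 difference was -0.13 in KSL (SE 0.243, limma adjusted p = 0.714) and -0.05 in KL (SE 0.244, adjusted p = 0.923). Camkk2 transcript therefore did not follow the label, whether the probes lie in the deleted part is not given in the sources used here, and KO and WT below mean arrays labelled so. Kit, which the gates select for, was lower under the KO label by a log2 difference of -0.75 in KSL (adjusted p = 0.00456) and -0.64 in KL (adjusted p = 1.82e-04). Of 4 sorting gate genes listed (Kit, Ly6a, Ptprc and Cd44), 3 were measured. These ran from -1.41 to -0.31 in KSL and from -0.88 to -0.25 in KL. Between the labelled cell types only 25 genes were called under the WT label and 80 under the KO label, against 1512 for the genotype label in KSL and 1205 in KL. Camkk2 did not follow the cell type label either. Its KSL minus KL difference was 0.13 under the WT label (SE 0.268, limma adjusted p = 0.974) and 0.04 under the KO label (SE 0.268, adjusted p = 0.966). From these arrays alone, an exchange of labels between genotype and cell type cannot be told apart from a genotype difference. Values of Ly6a, the gene of Sca-1, are not given here.

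The promoters of 4 members are shown, chosen after their values were seen, because Cdc6, Orc1 and Mcm10 were higher under the KO label in both cell types and Mcm6 lay near 0. Each is the 200 bases before the start site, 5′ to 3′ in the direction of the gene, from RefSeq on GRCm38.p6. Capitals mark matches to an E2F motif (TTTCCCGC, TTTCGCGC, TTTGCCGC or TTTGGCGC) or to a CCAAT box (CCAAT), each on either strand. The regions are Cdc6 at chr11:98907951-98908150 (plus strand), Orc1 at chr4:108579254-108579453 (plus strand), Mcm6 at chr1:128359706-128359905 (minus strand) and Mcm10 at chr2:5012792-5012991 (minus strand). The annotated genes of Cdc6 and Orc1 begin earlier, at chr11:98907709 and chr4:108575705, so these regions lie inside them. Their motif counts are those of the start site used, and sequence before the earlier gene starts is not shown.
Cdc6: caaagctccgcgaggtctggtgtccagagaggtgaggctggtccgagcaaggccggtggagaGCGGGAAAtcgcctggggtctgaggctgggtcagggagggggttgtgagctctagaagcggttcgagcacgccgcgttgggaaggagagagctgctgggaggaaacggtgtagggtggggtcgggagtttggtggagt
Orc1: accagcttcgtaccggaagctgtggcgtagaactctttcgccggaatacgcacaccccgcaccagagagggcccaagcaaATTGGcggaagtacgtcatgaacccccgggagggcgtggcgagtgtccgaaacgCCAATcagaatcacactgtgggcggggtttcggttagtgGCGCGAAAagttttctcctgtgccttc
Mcm6: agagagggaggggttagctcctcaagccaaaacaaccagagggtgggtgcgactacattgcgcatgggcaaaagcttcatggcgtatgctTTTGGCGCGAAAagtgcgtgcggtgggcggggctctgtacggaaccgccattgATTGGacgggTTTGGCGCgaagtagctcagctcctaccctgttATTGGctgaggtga
Mcm10: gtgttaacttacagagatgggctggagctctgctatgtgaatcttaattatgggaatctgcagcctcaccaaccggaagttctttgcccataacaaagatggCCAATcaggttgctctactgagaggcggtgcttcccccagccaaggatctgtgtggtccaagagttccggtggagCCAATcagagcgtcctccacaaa
Cdc6 held 1 E2F match and no CCAAT box, Orc1 held 1 E2F match and 2 CCAAT boxes, and Mcm10 held 2 CCAAT boxes and no E2F match. Mcm6 held 3 E2F matches, of which the first pair overlap, and 2 CCAAT boxes. In the 250 bases before the start site, an E2F match was found in 9 of the 33 members that have a promoter in the RefSeq table (27.3%): Cdc6, Dtl, Gins3, Mcm5, Mcm6, Orc1, Orc3, Pola1 and Rfc3. The share among all 27025 genes of the table was 2.16%. A CCAAT box was found in 22 of the 33 members (66.7%) and in 37.5% of all genes. These are matches of letters only, and no binding was measured.

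Under the KO label, 28 of 41 members lay above 0 in KSL cells and 33 of 41 in KL cells, where 63.7% and 60.6% of all genes did, with differences that were mostly small. The median log2 difference of the members was 0.07 in KSL, where that of all genes was 0.05, and 0.18 in KL, where that of all genes was 0.03. Leaving out single arrays moved the KSL median between 0.04 (without KSL KO replicate 2) and 0.10 (without KSL WT replicate 1). A gene counts as called here where its adjusted p is under 0.05 and it differs by 1.5-fold or more. In KSL, 3 of 41 members were called (Cdc6 and Orc2 higher, Rfc2 lower), where 5.01% of all genes were, 1.31% higher and 3.7% lower. In KL, 2 of 41 members were called (Cdc6 and Orc2 higher), where 3.99% of all genes were, 1.28% higher and 2.72% lower. By the adjusted p alone, 12 members passed in KSL, 10 higher and 2 lower, where 19% of all genes did, 8.5% higher and 10.5% lower. In KL, 18 members passed, 16 higher and 2 lower, where 15.8% of all genes did, 7.13% higher and 8.69% lower. Of these, 10 members passed in both cell types: Cdc6, Orc1, Orc2, Cdt1, Mcm10, Prim2, Fen1, Chaf1a and Clspn were higher and Rfc2 was lower. After quantile normalization, 14 members passed higher and 1 lower in KSL. The median of the members was then 0.16, with 35 above 0, where that of all genes was 0.03. Of all genes, 489 were then called higher and 995 lower in KSL, against 394 and 1118 before. The share of all genes passing the adjusted p under this scaling is not given here. Differences had the same sign in both cell types for 36 of 41 members. The shares of all genes with the same sign, or passing in both cell types, are not given here. These counts therefore do not show more agreement among the members than among other genes. In bulk samples, a change in the share of cells that replicate and a change in RNA per cell cannot be told apart.

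**Figure D1:**
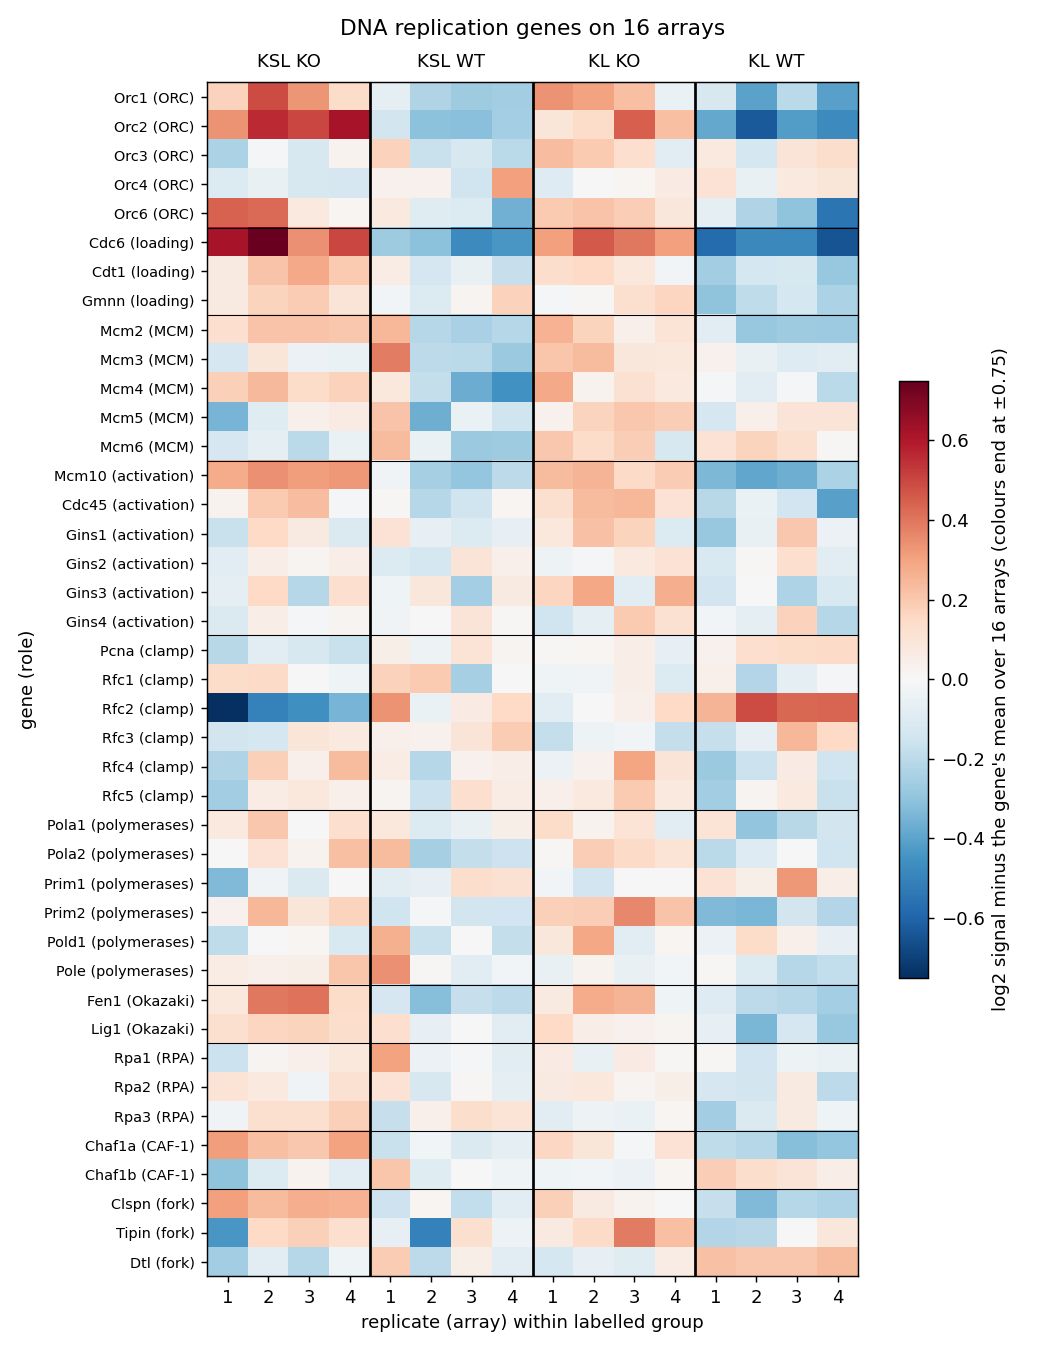
Each row is a replication gene with its role and each column an array, grouped as KSL KO, KSL WT, KL KO and KL WT. Colour gives the log2 signal minus the gene's mean over the 16 arrays. Orc1, Orc2, Cdc6, Mcm10, Chaf1a and Clspn are mostly red under the KO label and mostly blue under the WT label, Rfc2 runs the other way, and the MCM genes are red on KSL WT replicate 1 alone among the KSL WT arrays.

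The mean over the 41 members, relative to the 16-array mean of each, was -0.03, 0.13, 0.07 and 0.09 on the KSL KO arrays and 0.06, -0.12, -0.09 and -0.08 on the KSL WT arrays (log2, replicates 1 to 4). It was 0.08, 0.10, 0.11 and 0.06 on the KL KO arrays and -0.10, -0.12, -0.04 and -0.13 on the KL WT arrays. The KL groups did not overlap. The KSL groups did, because replicate 1 of KSL KO was the lowest of its group and replicate 1 of KSL WT the highest of its group. These arrays were also extremes of the 16 in signal level. Over all features, the array median was lowest on KSL WT replicate 1 (5.01) and highest on KSL KO replicate 1 (5.12). The brightest background probe set was lowest on KSL WT replicate 1 (7.37). The median background probe set was highest on KSL KO replicate 1 (4.16). Whether signal level bears on the overlap was not tested. Leaving out these arrays, which ran against the other KSL arrays, was an alternative chosen after the values were seen, and a wider gap follows from that choice. Without them, 15 members passed the adjusted p in KSL (14 higher and 1 lower), where 15.8% of all genes did, and the median was 0.13.

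Among the ORC genes, which encode the complex that binds origins, Orc1, Orc2 and Orc6 were higher under the KO label and Orc3 and Orc4 were not. Orc2 had log2 signals of 8.91, 9.13, 9.07 and 9.19 in KSL KO, against 8.43, 8.26, 8.26 and 8.32 in KSL WT. In KL it had 8.66, 8.71, 9.02 and 8.80 in KL KO, against 8.19, 7.94, 8.15 and 8.09 in KL WT. Every KO array was above every WT array of its cell type. The difference was 0.76 in KSL (SE 0.0707, adjusted p = 7.09e-05, a fold of 1.69) and 0.70 in KL (SE 0.0853, adjusted p = 4.52e-04, a fold of 1.63). Orc1, the ATPase subunit whose level follows the cell cycle, had 6.61, 6.93, 6.77 and 6.57 in KSL KO, against 6.37, 6.21, 6.17 and 6.18 in KSL WT. In KL it had 6.78, 6.74, 6.66 and 6.39 in KL KO, against 6.31, 6.04, 6.24 and 6.03 in KL WT. These groups did not overlap either, and the difference was 0.49 in both KSL (SE 0.0837, adjusted p = 0.00290) and KL (SE 0.0973, adjusted p = 0.00745). Orc1 was dim, and 13 members had at least 1 value below the brightest of the 23 background probe sets on its array. Orc1, Orc4, Gins3 and Clspn lay below it on all 16 arrays, and Mcm10 on 15. The median background probe set was lower, at 3.87 to 4.16 over the arrays, where the median gene was at 5.82 to 5.92. Mean signals of these members ran from 6.44 (Orc1) to 7.43 (Mcm10), above 60% and 77% of all genes. A filter on dim genes kept all 41 members. How far background affects the folds of these dimmer members was not tested. Orc6 passed in KL (0.46, SE 0.0896, adjusted p = 0.00674) and not in KSL (0.36, SE 0.121, adjusted p = 0.0663), where its range was 9.04 to 9.46 in KSL KO and 8.66 to 9.09 in KSL WT. Orc3 was at -0.01 in KSL and 0.08 in KL, and Orc4 at -0.16 and -0.06. Neither passed.

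Cdc6, the ATPase that brings MCM to ORC, had the largest difference of the members in both cell types. It had log2 signals of 9.14, 9.26, 8.87 and 9.03 in KSL KO, against 8.25, 8.21, 8.05 and 8.09 in KSL WT. In KL it had 8.83, 8.98, 8.92 and 8.83 in KL KO, against 7.95, 8.04, 8.04 and 7.88 in KL WT. The lowest KO array was above the highest WT array by more than the range within any WT group. The difference was 0.92 in KSL (SE 0.0871, adjusted p = 7.49e-05, a fold of 1.90) and 0.91 in KL (SE 0.0574, adjusted p = 1.15e-05, a fold of 1.88). Cdt1, its partner in loading MCM, ranged from 8.40 to 8.61 in KSL KO and from 8.16 to 8.39 in KSL WT, and from 8.31 to 8.48 in KL KO and from 8.05 to 8.21 in KL WT. Cdt1 rose by 0.27 in KSL (SE 0.0663, adjusted p = 0.0205) and 0.29 in KL (SE 0.0591, adjusted p = 0.00880). The KSL value no longer passed after median centring (0.25, adjusted p = 0.0557). Gmnn, which encodes geminin, the inhibitor of Cdt1, rose in KL by 0.28 (SE 0.0583, adjusted p = 0.00842). In KSL it was at 0.11 (adjusted p = 0.241), its groups overlapped, and it was at 0.21 after quantile normalization (adjusted p = 0.0334).

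**Figure D2:**
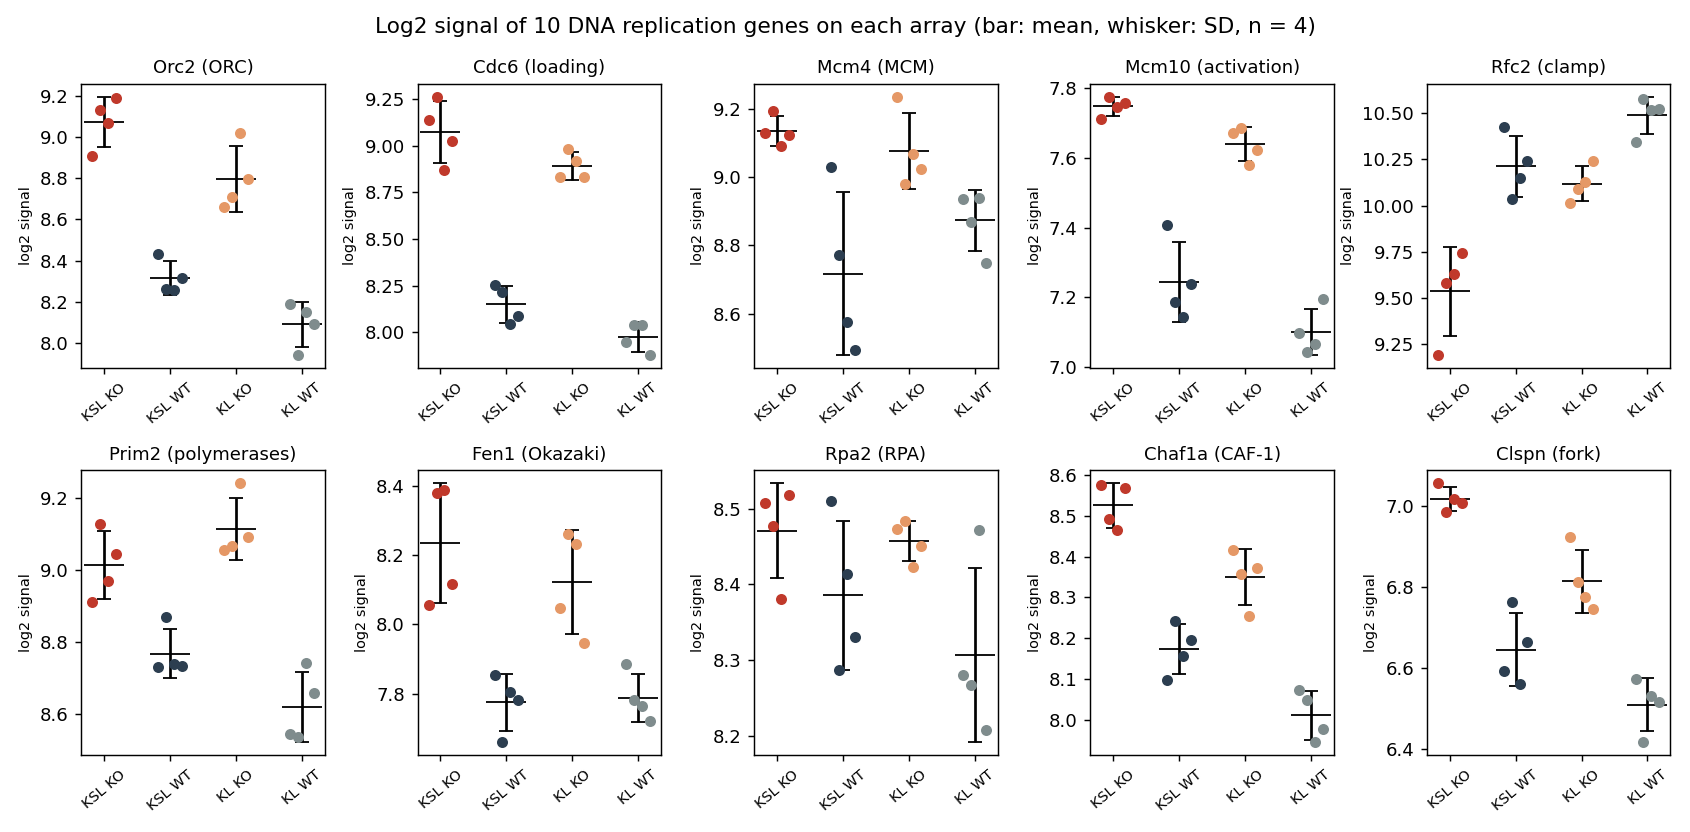
Log2 signal (vertical axes, each with its own range) of 10 members on each array, in the order KSL KO, KSL WT, KL KO and KL WT, with the mean and SD of the 4 arrays. Cdc6, Orc2, Mcm10, Chaf1a and Clspn show separate KO and WT groups in both cell types, Rfc2 is lowest in KSL KO, and Rpa2 overlaps between the labels.

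The 5 MCM helicase genes measured, which encode subunits of the ring that unwinds DNA, were less uniform. Mcm4 had 9.13, 9.19, 9.09 and 9.12 in KSL KO, against 9.03, 8.77, 8.58 and 8.49 in KSL WT, and the groups did not overlap. It had 9.24, 8.98, 9.07 and 9.02 in KL KO, against 8.94, 8.87, 8.94 and 8.75 in KL WT. Mcm4 rose in KSL by 0.42 (SE 0.104, adjusted p = 0.0206). In KL it was at 0.20 (SE 0.0682, adjusted p = 0.0764), although its KL groups did not overlap either. Mcm2 had 9.92, 10.01, 10.01 and 9.997 in KSL KO, against 10.05, 9.58, 9.55 and 9.58 in KSL WT, so that replicate 1 of KSL WT was above all KSL KO arrays. It had 10.06, 9.96, 9.84 and 9.90 in KL KO, against 9.71, 9.51, 9.53 and 9.52 in KL WT. Mcm2 rose in KL by 0.37 (SE 0.0652, adjusted p = 0.00374). In KSL it was at 0.29 (SE 0.103, adjusted p = 0.0744), and at 0.41 without KSL WT replicate 1 (SE 0.0473, adjusted p = 5.47e-04). Mcm3 passed in KL (0.20, SE 0.0552, adjusted p = 0.0343) and was at 0.04 in KSL (SE 0.132, adjusted p = 0.844). In KSL it had 10.06, 10.27, 10.14 and 10.13 in KO, against 10.57, 9.99, 9.98 and 9.91 in WT, replicate 1 of WT again being the highest. Mcm5 was at 0.00 in KSL and 0.12 in KL, and Mcm6 at -0.02 and -0.00, with overlapping groups. After quantile normalization Mcm6 was at 0.09 in KSL (adjusted p = 0.633). Mcm6 is the member whose promoter above holds 3 E2F matches.

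Of the genes that turn loaded MCM into an active helicase, Mcm10 differed most. It had 7.71, 7.78, 7.75 and 7.76 in KSL KO, against 7.41, 7.19, 7.14 and 7.24 in KSL WT. In KL it had 7.67, 7.69, 7.58 and 7.62 in KL KO, against 7.10, 7.04, 7.07 and 7.19 in KL WT. The groups did not overlap, and the KSL KO arrays lay within a narrow range. Mcm10 rose by 0.51 in KSL (SE 0.0623, adjusted p = 3.82e-04, a fold of 1.42) and by 0.54 in KL (SE 0.0504, adjusted p = 9.61e-05, a fold of 1.45), both under the fold of 1.5. On 15 of 16 arrays Mcm10 lay below the brightest background probe set of its array. Cdc45, which joins MCM in the active helicase, rose in KL by 0.38 (SE 0.0766, adjusted p = 0.00767) and was at 0.19 in KSL (SE 0.0781, adjusted p = 0.110), or 0.29 after quantile normalization (adjusted p = 0.0201). The 4 GINS genes did not pass in either cell type, although Gins3 did in KL after quantile normalization (0.30, adjusted p = 0.0381). They lay between -0.03 (Gins4) and 0.04 (Gins2) in KSL and between 0.05 (Gins2) and 0.28 (Gins3, adjusted p = 0.0536) in KL.

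The clamp and its loader had a median below 0, at -0.07 in KSL and -0.03 in KL, which turned to 0.04 and 0.02 after quantile normalization. Rfc2, a subunit of the complex that opens Pcna and places it on DNA, had 9.19, 9.58, 9.63 and 9.74 in KSL KO, against 10.43, 10.04, 10.15 and 10.24 in KSL WT. On KL arrays the values were 10.01, 10.09, 10.13 and 10.24 in KL KO, against 10.34, 10.58, 10.52 and 10.52 in KL WT. Every KO array was below every WT array of its cell type. The difference was -0.68 in KSL (SE 0.122, adjusted p = 0.00377) and -0.37 in KL (SE 0.0669, adjusted p = 0.00413). The KSL call needed replicate 1 of KSL KO, since without it the difference was -0.56 (adjusted p = 0.00341), under the fold of 1.5. Pcna had 11.50, 11.63, 11.59 and 11.54 in KSL KO, against 11.75, 11.67, 11.81 and 11.73 in KSL WT. Its KSL difference was -0.18 (SE 0.0513, adjusted p = 0.0406), and this passed in only 1 of 8 fits that each left out an array and was 0.03 after quantile normalization (adjusted p = 0.727), so that its direction depended on the scaling. In KL it was at -0.11 (adjusted p = 0.170), with 11.72, 11.72, 11.76 and 11.65 in KL KO, against 11.74, 11.84, 11.85 and 11.85 in KL WT. The other loader genes did not pass, and they lay between -0.12 (Rfc3) and 0.07 (Rfc4) in KSL and between -0.15 (Rfc3) and 0.23 (Rfc4) in KL. After quantile normalization Rfc4 was at 0.25 in KL (adjusted p = 0.0471).

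Among polymerase and primase genes, Prim2, which encodes the large subunit of primase, rose in both cell types. It had 8.91, 9.13, 8.97 and 9.04 in KSL KO, against 8.73, 8.87, 8.74 and 8.74 in KSL WT. On KL arrays the values were 9.06, 9.07, 9.24 and 9.09 in KL KO, against 8.55, 8.54, 8.74 and 8.66 in KL WT. The KSL groups were close and did not overlap, and the KL groups were farther apart. The difference was 0.24 in KSL (SE 0.0611, adjusted p = 0.0205) and 0.49 in KL (SE 0.0641, adjusted p = 6.69e-04). Prim1, the catalytic partner of Prim2, lay the other way at -0.14 in KSL (adjusted p = 0.258) and -0.17 in KL (adjusted p = 0.143). Pola2, a subunit of polymerase alpha, passed in KL at 0.22 (SE 0.0594, adjusted p = 0.0310) and was at 0.18 in KSL (adjusted p = 0.248). Pola1, Pold1 and Pole, the catalytic subunits of the replicative polymerases, did not pass and lay between -0.05 and 0.18 over both cell types.

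**Figure D3:**
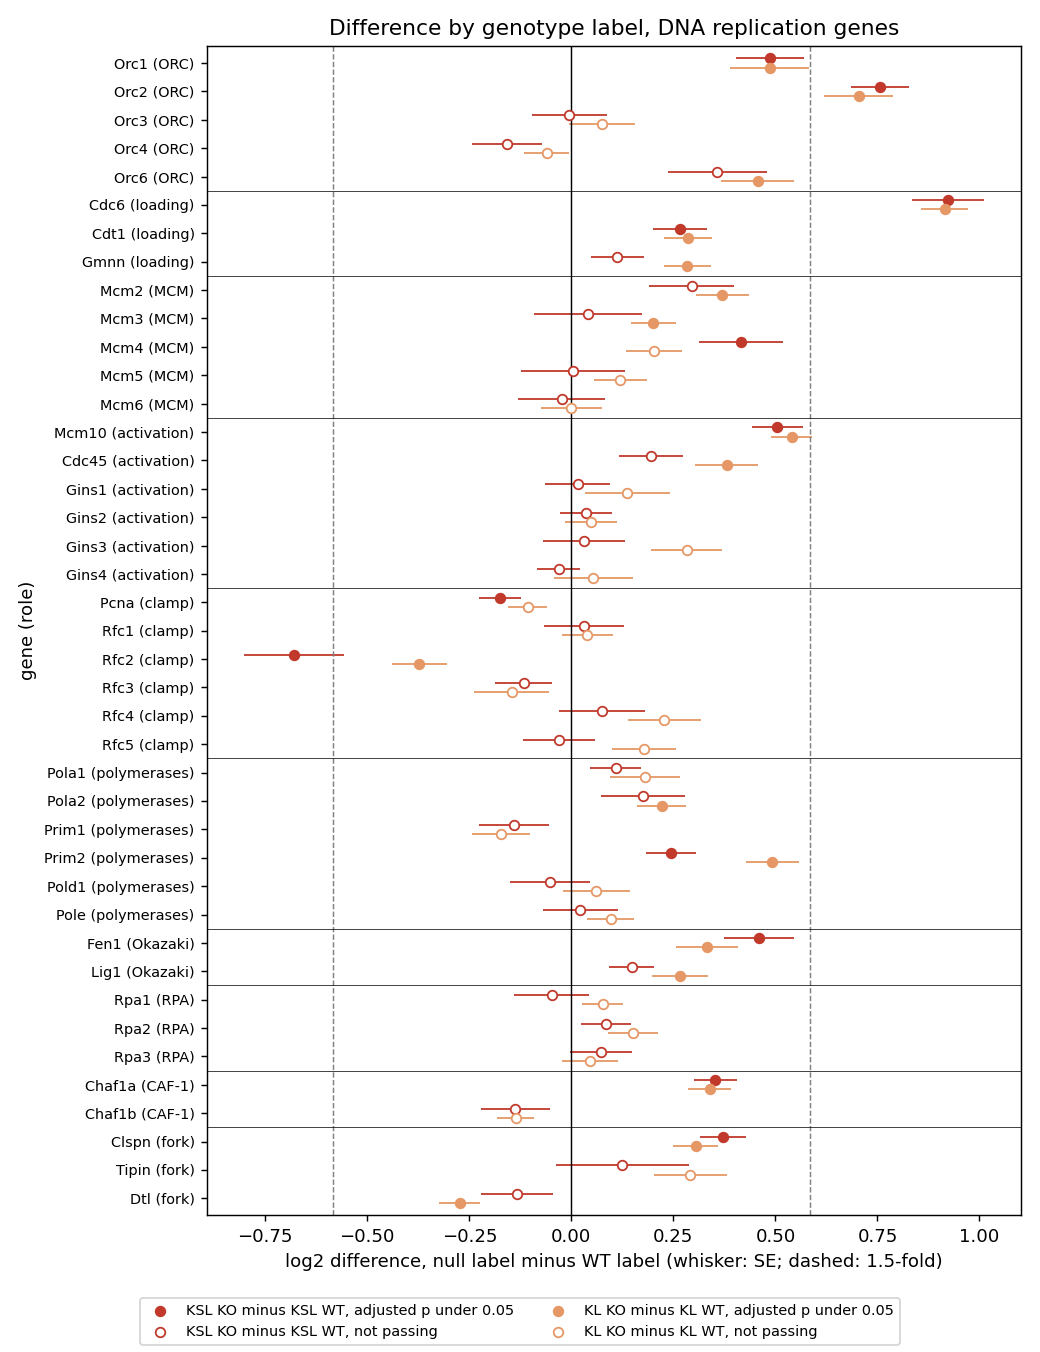
Log2 difference by genotype label (horizontal axis, KO minus WT, whisker SE) of each member in KSL (red) and KL (orange), with filled points at an adjusted p under 0.05 and dashed lines at a fold of 1.5. Cdc6 and Orc2 lie beyond the upper line in both cell types, Rfc2 beyond the lower line in KSL, and the other 38 members between the lines.

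Fen1, the nuclease that trims the flaps of Okazaki fragments, had 8.06, 8.38, 8.39 and 8.12 in KSL KO, against 7.85, 7.66, 7.81 and 7.78 in KSL WT. On KL arrays the values were 8.05, 8.26, 8.23 and 7.95 in KL KO, against 7.89, 7.78, 7.77 and 7.72 in KL WT. The groups did not overlap, with replicates 2 and 3 the highest under the KO label in both cell types. Fen1 rose by 0.46 in KSL (SE 0.0855, adjusted p = 0.00461) and 0.33 in KL (SE 0.0755, adjusted p = 0.0142). Lig1, the ligase that seals these fragments, rose in KL by 0.27 (SE 0.0684, adjusted p = 0.0255) and was at 0.15 in KSL (adjusted p = 0.0914), or 0.23 after quantile normalization (adjusted p = 0.0218). The RPA genes, whose products coat single-stranded DNA, did not pass. Rpa2 had 8.51, 8.48, 8.38 and 8.52 in KSL KO, against 8.51, 8.29, 8.41 and 8.33 in KSL WT, and 8.47, 8.48, 8.42 and 8.45 in KL KO, against 8.28, 8.27, 8.47 and 8.21 in KL WT. The groups overlapped, and the difference was 0.09 in KSL (SE 0.0614, adjusted p = 0.337) and 0.15 in KL (SE 0.0603, adjusted p = 0.133).

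Chaf1a and Chaf1b encode subunits of CAF-1, the complex that places histones on new DNA, and they lay on opposite sides of 0. Chaf1a had 8.58, 8.49, 8.47 and 8.57 in KSL KO, against 8.10, 8.24, 8.16 and 8.19 in KSL WT. On KL arrays the values were 8.42, 8.36, 8.25 and 8.37 in KL KO, against 8.07, 8.05, 7.94 and 7.98 in KL WT. The groups did not overlap, and Chaf1a rose by 0.35 in KSL (SE 0.0520, adjusted p = 0.00114) and 0.34 in KL (SE 0.0527, adjusted p = 0.00186). Chaf1b was at -0.14 in both KSL (adjusted p = 0.264) and KL (adjusted p = 0.0753). Clspn, which encodes claspin, a fork protein needed for checkpoint signalling, had 7.06, 6.98, 7.02 and 7.01 in KSL KO, against 6.59, 6.76, 6.56 and 6.66 in KSL WT. On KL arrays the values were 6.92, 6.81, 6.77 and 6.74 in KL KO, against 6.57, 6.42, 6.53 and 6.52 in KL WT. It rose by 0.37 in KSL (SE 0.0553, adjusted p = 0.00122) and 0.30 in KL (SE 0.0556, adjusted p = 0.00452), again at levels below the brightest background probe set. Tipin, which stabilises forks, was at 0.13 in KSL (SE 0.163) and 0.29 in KL (SE 0.0896, adjusted p = 0.0549), or 0.32 in KL after quantile normalization (adjusted p = 0.0150). Dtl, the substrate receptor of the ubiquitin ligase that removes Cdt1 in S phase, was lower in KL KO, with a difference of -0.27 (SE 0.0503, adjusted p = 0.00469). Its values there were 9.02 to 9.21 in KL KO and 9.35 to 9.39 in KL WT, and in KSL it was at -0.13 (adjusted p = 0.296).

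The KO arrays were all above the WT arrays for 10 members in KSL and all below for 2, where 14.9% of all genes were above and 11.8% below. In KL they were above for 17 members and below for 4, where 10.7% of all genes were above and 10.2% below. Of the 12 members that passed in KSL, 8 passed in each of the 8 fits that left out an array. The others were Cdt1, Mcm4, Prim2 and Pcna, and the count fell to 8 without KSL WT replicate 4. In KL, 15 of 18 passed in each fit, the others being Mcm3, Pola2 and Lig1.

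Whether the difference by genotype label itself differed between KSL and KL was tested as an interaction over all 16 arrays. No member passed and no gene of the 30176 did (0%). The interaction of the members ran from -0.31 (Rfc2, SE 0.148, adjusted p = 0.793) to 0.21 (Mcm4), with a median of -0.07, or -0.02 without KSL WT replicate 1. It was 0.01 for Cdc6 (SE 0.107, adjusted p = 0.991) and 0.05 for Orc2 (SE 0.115, adjusted p = 0.943). Only Prim2 passed at an unadjusted p under 0.05, where 6.19% of all genes did, with an interaction of -0.25 (SE 0.0882, limma adjusted p = 0.686). More members passed in KL than in KSL, but the difference between the cell types was not shown for any one of them.

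The labelled cell types were compared directly, with groups that also enter the comparisons above. Between KSL WT and KL WT no member passed by limma, where 0.109% of all genes did, and 11 had an unadjusted p under 0.05, where 7.98% of all genes did. The differences ran from -0.28 for Rfc2 (SE 0.105, adjusted p = 0.483) to 0.23 for Gmnn (SE 0.0616, adjusted p = 0.208), with a median of 0.08, or 0.04 without KSL WT replicate 1. Between KSL KO and KL KO, 1 member passed by the adjusted p, where 1.07% of all genes did and 0.799% were lower. That was Rfc2, lower in KSL KO by a difference of -0.58 (SE 0.105, adjusted p = 0.0120), just under the fold of 1.5. All 4 KSL KO arrays were below all 4 KL KO arrays for this gene, as the values above show. The median of the members was -0.02, or 0.067 after quantile normalization, and it was 0.0076 without KSL KO replicate 1 and -0.05 without KL KO replicate 1. At an unadjusted p under 0.05, 9 members passed, where 12.6% of all genes did.

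Other genes of the cell cycle were read from 4 lists of 112 genes, of which 108 were measured. By the adjusted p, 8.5% of all genes were higher and 10.5% lower in KSL, and 7.13% higher and 8.69% lower in KL. Of 41 other DNA replication genes, 12 were higher and 4 lower by the adjusted p in KSL, and 20 were higher and 3 lower in KL, with medians of 0.14 and 0.22. Pold4, the small subunit of polymerase delta, was called lower in both (-0.78 in KSL, adjusted p = 1.60e-04, and -0.80 in KL, adjusted p = 9.83e-04). Asf1a, a histone chaperone, was called higher in KL (0.66, adjusted p = 0.00286). Of 11 genes of nucleotide synthesis, 2 were higher and 1 lower in KSL and 3 higher and 1 lower in KL, with medians of -0.03 and 0.02. Both large and small subunits of ribonucleotide reductase, which makes deoxynucleotides, were called higher in KSL (Rrm1 0.59, adjusted p = 0.00335, and Rrm2 0.73, adjusted p = 9.60e-04), and Rrm2 also in KL (0.79, adjusted p = 4.02e-04). Of 29 mitosis genes, 7 were higher and 1 lower in KSL and 13 higher and 1 lower in KL, with medians of 0.15 and 0.26. Anln, which encodes the cytokinesis protein anillin, was the one called in KL (0.69, adjusted p = 1.91e-04).

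Of 27 regulators of the step from G1 to S, 8 were higher and 9 lower in both KSL and KL, with medians of -0.10 and -0.06. Ccne1, which encodes cyclin E1, an activator of Cdk2 at the start of S phase, was called higher in KSL (1.87, adjusted p = 4.04e-06) and KL (1.90, adjusted p = 2.63e-05). E2f4, an E2F factor best known as a repressor, was called higher in both (1.02, adjusted p = 1.19e-05, and 1.03, adjusted p = 5.35e-04). Ccnd2, a D-type cyclin, was called lower in KSL (-0.84, adjusted p = 0.00381) and KL (-0.66, adjusted p = 4.68e-04). The CDK inhibitor gene Cdkn1a was called lower in both (-0.68 in each, adjusted p = 0.00430 and 0.0189). The retinoblastoma family moved in both directions in KSL, with Rb1 called higher (0.62, adjusted p = 0.00450) and Rbl2 lower (-0.59, adjusted p = 0.00168), and the repressor E2f8 was called higher in KL (0.69, adjusted p = 2.16e-04).

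**Figure D4:**
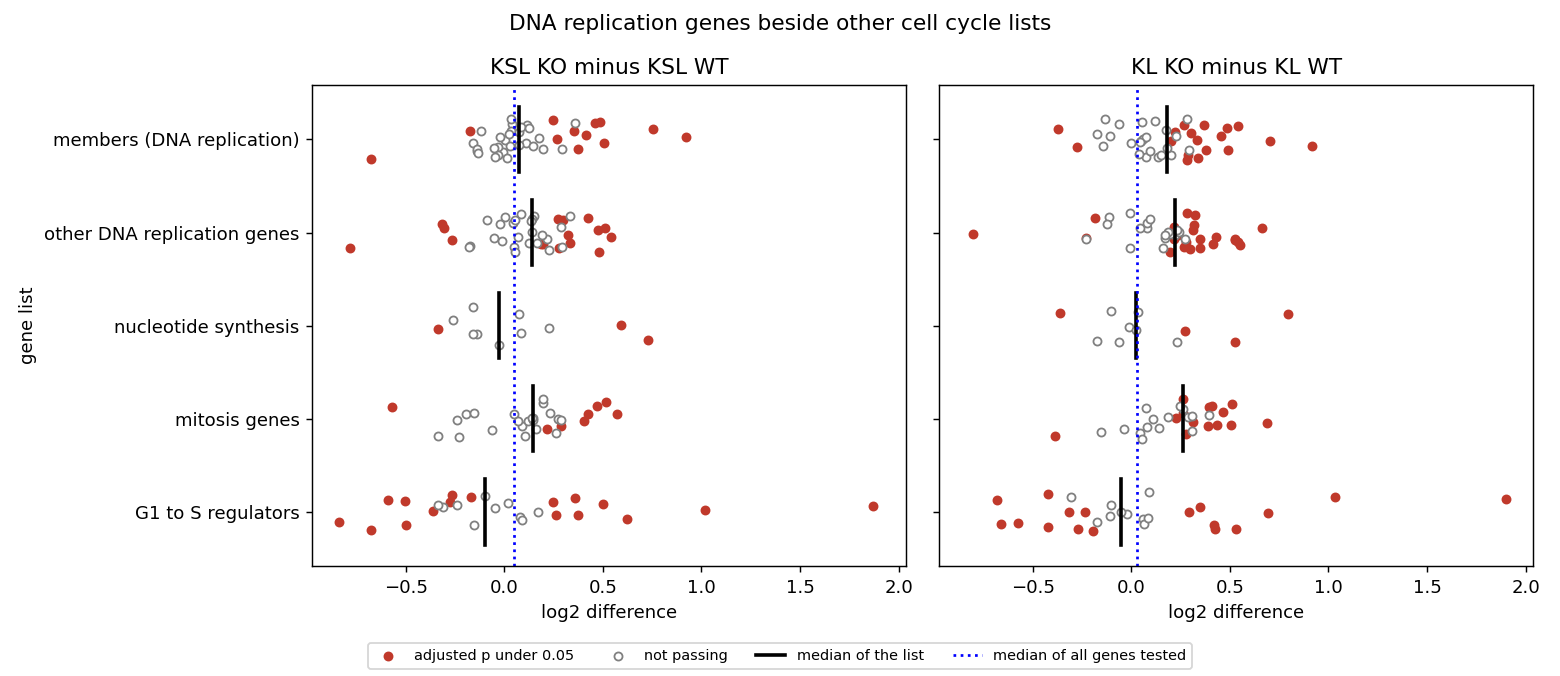
Log2 difference by genotype label (horizontal axis, KO minus WT) of the members and of the genes of 4 cell cycle lists, in KSL (left) and KL (right). Red points passed the adjusted p, black bars are list medians and the dotted line is the median of all genes (0.05 in KSL and 0.03 in KL), and the regulators of G1 to S spread widest.

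Several lists of blood lineage markers moved with the same labels, where 5.01% of all genes were called in KSL and 3.99% in KL. Of 17 erythroid genes measured, 13 were called higher under the KO label in both cell types, and the mean log2 level of the list was 9.25 to 9.48 in KSL KO and 7.68 to 7.80 in KSL WT, and 8.86 to 9.28 in KL KO and 7.37 to 7.64 in KL WT. Of 14 neutrophil and granulocyte-macrophage progenitor genes, 9 were called higher and 1 lower in KSL and 8 higher and 1 lower in KL, with mean levels of 8.65 to 8.998 in KSL KO and 7.72 to 7.99 in KSL WT, and 8.48 to 8.97 in KL KO and 7.44 to 7.78 in KL WT. Of 9 genes of lymphoid-primed progenitors, 7 were called lower in both, with mean levels of 5.85 to 5.93 in KSL KO and 7.54 to 7.67 in KSL WT, and 6.14 to 6.37 in KL KO and 7.50 to 7.86 in KL WT. Of 12 stem cell genes, 4 were called lower in KSL and 5 in KL, with mean levels of 6.23 to 6.30 in KSL KO and 7.03 to 7.26 in KSL WT, and 6.42 to 6.54 in KL KO and 7.20 to 7.36 in KL WT. In KSL WT minus KL WT, 0 of these 12 lay above 0 (median -0.18), and 0 passed the adjusted p. Of all genes, 50.8% lay above 0 there and 0.109% passed. In KSL KO minus KL KO, 6 lay above 0, with 3 called lower and 0 higher. Of all genes, 56.7% lay above 0 there, with 0.229% called lower and 0.0365% higher. Stem cell genes as a list were thus not higher under the KSL label, and KSL and KL also mean arrays labelled so. Of 7 B cell genes, 0 were called in either cell type. By the adjusted p, 2 passed in KSL and 1 in KL, where 19% and 15.8% of all genes did. Of 9 monocyte and macrophage genes, 1 was called higher and 2 lower in KSL, and 2 higher and 1 lower in KL. Of 8 mast cell and basophil genes, 1 was called higher and 1 lower in KSL (median -0.38) and 3 higher in KL (median 0.58). Of 7 megakaryocyte and platelet genes, 1 was called lower in each cell type, and of 9 T and NK cell genes, 2 were called lower in KSL and 1 in KL. The mean levels of the first 4 lists did not overlap between KO and WT arrays of a cell type, and their part in the differences of the replication genes was not tested.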

How the data were processed

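RNA of sorted KSL and KL cells was biotin-labelled and hybridised to 16 1-colour arrays. The deposited values are log2 signals, which per the labels the authors made with RMA in Partek 6.6. Other steps and the build are not given in the sources used here. These values were used without further scaling. Of 72688 features, 32814 were listed with a gene, and the 30638 probe sets naming 1 gene gave 30176 genes (the brightest on average where several, 354 genes). limma 3.58.1 in R 4.3.3 (lmFit, eBayes, two-sided) was fitted to the 8 arrays of a cell type for genotype labels and to all 16 for the interaction and the cell types, with Benjamini-Hochberg adjustment over all genes. The fit was tested on simulated data. The 42 members, roles and other lists were chosen with earlier results of these data known. Values on every array are given for members called in KSL or KL, for the largest KSL change of each role, and for Orc1, Mcm2, Mcm3 and Pcna, chosen after their values were seen. Precision is limited by 4 arrays per group. Alternatives were quantile normalization, median centring, a filter on dim genes, a trend with robust fit, a fit over all arrays, a replicate block, the methods' t-test and leaving out arrays. Another was the mean of probe sets, which cannot change the signals of the members, since each measured member has 1 probe set.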

Additional observations from a re-analysis of the deposited data

Results flagged for a closer look

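Among 164 sets of 4 arrays (41 members in 4 groups), 9 had an array whose gap to the others, as a share of the range, exceeded Dixon's 95% critical value, and chance marks about 1 in 20 such sets. In the MCM genes, KSL WT replicate 1 was high for Mcm2 (10.05, the others 9.55 to 9.58) and Mcm3 (10.57, the others 9.91 to 9.99), and KL WT replicate 1 was high for Mcm2 (9.71, the others 9.51 to 9.53). KSL KO replicate 1 was low for Rfc5 (8.45, the others 8.75 to 8.79) and Tipin (8.84, the others 9.41 to 9.46). KSL WT replicate 2 was low for Rfc4 (9.49, the others 9.74 to 9.76) and high for Prim2 (8.87, the others 8.73 to 8.74). Pcna was low on KL WT replicate 1 (11.74, the others 11.84 to 11.85), and Pole was high on KSL KO replicate 4 (8.05, the others 7.88 to 7.90). Of the 9, 6 were on replicate 1 of a group. Values of members on the same array are not independent, and whether replicate 1 stands out was not tested.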

How the results depend on the processing

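Under the alternatives, 286 summary values stayed within the spread or within 1.5 times of a count and 11 did not. Of the differences of the 10 members named by rule, 327 kept their direction and their call status at the adjusted p and fold together, and 3 lost the call. Only Cdc6, Orc2 and Rfc2 were called in KSL, and Cdc6 and Orc2 in KL. Any difference that stayed uncalled counts as kept, and so does a count of 0 that stayed 0, so these totals overstate stability. By the adjusted p alone, Mcm4 and Prim2 in KSL were each lost in 3 leave-outs. None of these reversed, but in KSL Pcna, the clamp median and members near 0 changed sign with quantile normalization. Quantile normalization moved the KSL median of the members to 0.16 (35 above 0, against 28) and that of all genes to 0.03, from 0.05. It gave 14 members higher and 1 lower by the adjusted p, and moved the median of the interaction to -0.0016. It also moved the median of KSL KO minus KL KO to 0.067 and its passing members to 2. Median centring gave 1 member called in that comparison, and leaving out single arrays gave 0 to 1 called and 1 to 2 passing. Rfc2 in KSL was under the fold of 1.5 with quantile normalization (-0.57, adjusted p = 0.00321), without KSL KO replicate 1 (-0.56) and without that array and KSL WT replicate 1 (-0.49). Leaving out single arrays gave 2 to 3 members called and 8 to 14 passing in KSL, and 2 called and 15 to 19 passing in KL. The 14 passed without KSL WT replicate 1, where 17.1% of all genes did, against 19% with all KSL arrays. For the other ends of these ranges the share of all genes is not given here.

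The labels do not say that a replicate number marks shared mice, and over all genes the deviations of same-numbered arrays correlated at -0.00629 to 0.159 in KSL, -0.0147 to 0.243 in KL, 0.0337 to 0.146 between KSL KO and KL KO and 0.0307 to 0.224 between KSL WT and KL WT, so pairing was not taken as given. Over the 41 members alone these ran from 0.17 to 0.54 in KL and from 0.203 to 0.516 between KSL KO and KL KO, against -0.359 to 0.185 and -0.377 to 0.2 for unlike numbers. They ran from 0.0112 to 0.455 in KSL and from -0.0599 to 0.494 between KSL WT and KL WT, where unlike numbers overlapped them (-0.587 to 0.733 and -0.415 to 0.337). With the replicate block, 12 members passed in KSL (11 higher, 1 lower) and 21 in KL (19 higher, 2 lower), and 3 and 2 were called. The shares of all genes that passed with the block are not given here, so these counts have no baseline. With it, 0 members passed in the interaction, 0 in KSL WT minus KL WT and 1 in KSL KO minus KL KO, as without it. The methods' t-test gave 14 members in KSL and 24 in KL before Benjamini-Hochberg adjustment, where 34.1% and 26.7% of all genes passed, and 11 and 15 after it, where 15.2% and 11.1% did. The cause of these shifts was not tested. Arrays carry no depth, and values below the brightest background probe set limit Orc1, Orc4, Gins3, Clspn, Mcm10 and Rfc1 most. All of these members lay above the median background probe set.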
